A study of Mus musculus with 10 samples.

Results

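TRIM genes encode tripartite motif proteins, most of them ubiquitin ligases in which a RING domain is followed by B-box and coiled-coil domains. The family was taken as every row whose symbol is Trim followed by a digit, which gave 68 of the 22329 genes in the table. Of these, 14 were placed on a list of interferon-induced members from general knowledge of the family, and 54 formed the rest. The list was drawn up with earlier results of these data known, so its counts, medians and motif shares below are descriptive only. The levels come from RNA sequencing of 10 tumours grown under the skin of C57BL6/J mice from injected cells of B16F10, a mouse melanoma line. Each tumour received 1 injection of 80 µg mRNA and was collected 7 days later. In the 5 cytokine mRNA tumours (libraries 6 to 10) the injection held 20 µg each of mRNAs for mouse single-chain IL-12, IL-15sushi, GM-CSF and IFNalpha. In the 5 control mRNA tumours (libraries 1 to 5) all of it was luciferase mRNA, so that both groups had the tumour line, the host strain and the mRNA injection in common. The injected mRNAs encode no TRIM gene. Values are TPM, a share of the library's transcripts corrected for transcript length, and the depth of the libraries is unknown. The labels list each library as its own sample, with 5 tumours per group in the design and no batch, so p-values measure the spread between these tumours only.

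Type I and type II interferons act through STAT transcription factors, and the type I complex, ISGF3, binds a promoter element called the interferon-stimulated response element. Several TRIM genes carry such elements and are themselves antiviral proteins or adjust the signalling that follows the sensing of foreign RNA or DNA. In the mouse the relatives of human TRIM5, a factor that binds retroviral capsids, have multiplied into a gene cluster that holds Trim12a, Trim12c and the Trim30 genes. Other family members work in transcription, in neurons or in striated muscle. In bulk tumours, more cells of a type cannot be told apart from more RNA per cell, and this holds for every level below.

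The promoters of the interferon-induced members are shown first, because 9 of the 10 that could be tested were higher in cytokine mRNA tumours. A promoter here is the 300 bases from 250 before to 50 after a RefSeq transcription start (GRCm38.p6), and 53 of the 68 genes, 13 of them on the interferon-induced list, had an entry. The core of the response element was searched as GAAA-NN-GAAA, with N any base, on both strands. It was held by 7 of the 13 interferon-induced members (53.8%) and by 2 of 40 other TRIM genes (5.00%), Trim5 and 1 of the promoters of Trim2. Among all 27025 genes with an entry the share was 3.99%, and among all 32851 promoter windows it was 3.44%. Of the tested genes with an entry, 13.5% of the 702 called higher and 3.23% of the 8952 others held it. The matches of the interferon-induced members and of Trim5 are given on the strand of the gene, 5′ to 3′, with the match in capitals and 10 bases on each side.
Trim12a: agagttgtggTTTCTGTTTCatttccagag
Trim5: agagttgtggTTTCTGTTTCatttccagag
Trim12c: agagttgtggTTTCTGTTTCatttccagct
Trim30d: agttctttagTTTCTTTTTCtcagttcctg
Trim30a upstream start: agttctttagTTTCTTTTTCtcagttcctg
Trim30a downstream start: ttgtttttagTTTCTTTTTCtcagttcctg
Trim34a: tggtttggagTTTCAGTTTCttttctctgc
Trim21: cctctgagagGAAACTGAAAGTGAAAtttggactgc
Trim26: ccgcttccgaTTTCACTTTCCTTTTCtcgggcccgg
These windows lie at Trim12a chr7:104315466-104315495 (minus), Trim5 chr7:104288136-104288165 (minus), Trim12c chr7:104353359-104353388 (minus), Trim30d chr7:104507871-104507900 (minus), Trim30a upstream start chr7:104465210-104465239 (minus), Trim30a downstream start chr7:104446104-104446133 (minus), Trim34a chr7:104244457-104244486 (plus), Trim21 chr7:102565444-102565479 (minus), Trim26 chr17:36836976-36837011 (plus). The windows of Trim12a and Trim5 were identical, as were those of Trim30d and the upstream start of Trim30a. In Trim21 and Trim26 a pair of matches overlapped. All 7 genes of the list that hold the match were called higher. Of the members with an entry and no match, Trim25 was called higher and Trim56 was tested and not called. Trim6, Trim30b, Trim30c and Trim34b also had no match, but their levels were too low to be tested and are given below. Trim14 had no entry. A second element, the gamma-activated sequence searched as TTCNNNGAA, was in 1 of the 13 (7.69%) and in 5 of the 40 other TRIM genes (12.5%), against 9.55% of all genes. The promoter of Trim30d, the member with the largest change, is given whole (chr7:104507800-104508099, minus strand), with the same match in capitals.
Trim30d: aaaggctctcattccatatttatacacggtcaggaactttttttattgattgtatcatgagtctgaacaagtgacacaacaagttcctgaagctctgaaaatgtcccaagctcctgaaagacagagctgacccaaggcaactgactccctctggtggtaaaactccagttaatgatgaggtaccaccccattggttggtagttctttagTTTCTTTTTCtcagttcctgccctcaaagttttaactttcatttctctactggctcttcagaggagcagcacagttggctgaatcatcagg
The corresponding window of Trim12a (chr7:104315446-104315745, minus strand) holds its match from base 10 after the start.
Trim12a: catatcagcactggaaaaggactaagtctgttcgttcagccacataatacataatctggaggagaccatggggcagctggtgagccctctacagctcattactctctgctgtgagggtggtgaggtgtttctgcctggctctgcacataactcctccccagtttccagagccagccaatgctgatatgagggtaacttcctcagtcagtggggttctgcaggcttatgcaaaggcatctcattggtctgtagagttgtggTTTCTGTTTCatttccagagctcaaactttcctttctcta

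Of the 68 TRIM genes, 38 reached 1 TPM in 5 or more libraries and were tested with limma on log2(TPM + 1). A call means an adjusted p under 0.05, with Benjamini-Hochberg adjustment over the 12497 genes of the whole table that passed the same filter. Another 22 were above 0 but below this filter, 4 of them on the interferon-induced list (Trim6, Trim30b, Trim30c and Trim34b) and 18 not (Trim5, Trim9, Trim17, Trim29, Trim38, Trim42, Trim43a, Trim45, Trim50, Trim52, Trim54, Trim55, Trim61, Trim66, Trim67, Trim69, Trim72 and Trim80). The last 8 were at 0 in every library (Trim15, Trim31, Trim40, Trim43b, Trim43c, Trim58, Trim60 and Trim75). Of the 14 interferon-induced members 10 were tested, and 9 rose and 1 was not called; limma called 0 lower, and 0 had an unadjusted p under 0.05 in that direction. Over all genes tested, 7.41% were called higher, 3.02% lower and 10.4% in either direction. Of the 28 other TRIM genes tested, 1 rose (Trim46), 1 fell (Trim59) and 26 were not called, shares of 3.57% higher and 3.57% lower. Of these 28, 2 had an unadjusted limma p under 0.05 with a rise and 7 with a fall. Of all 12497 genes tested, 1804 rose and 2009 fell at that threshold. In 7 of the 10 interferon-induced genes the 5 cytokine mRNA tumours all lay above the 5 control tumours, against 5.45% of all genes. Among the 28 others they did so in 1, Trim46 (3.57%). They all lay below in 0 of the 10 and 0 of the 28, against 3.78% of all genes. The median change was 1.88 on the log2 scale for the 10, -0.12 for the 28 and -0.18 for all genes tested. Without the filter the median was 1.66 over the 14 and -0.07 over the other members above 0. Trim36 was in the test mainly through its cytokine mRNA tumours and Trim10 and Trim71 mainly through their controls, with a median under 1 TPM in the other group.

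**Figure D1:**
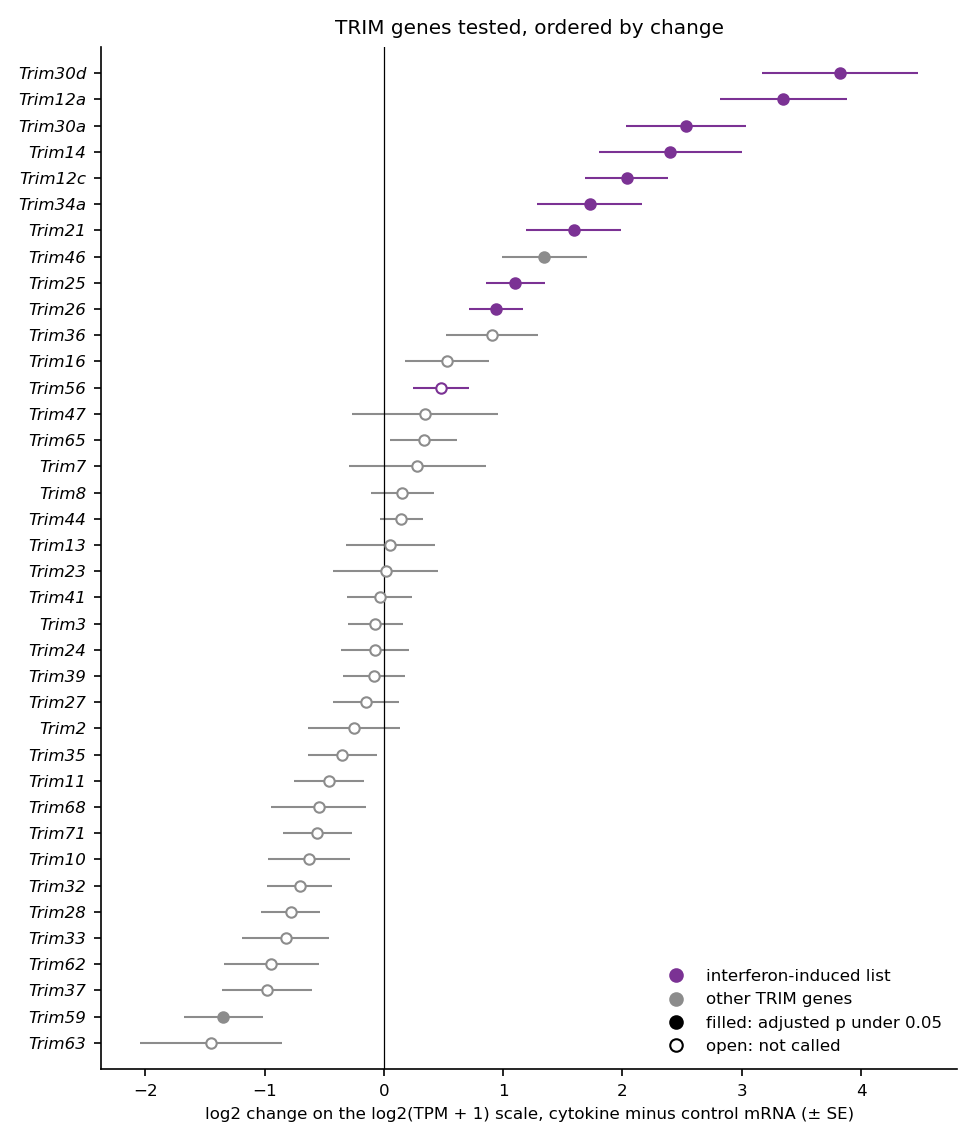
Change of each of the 38 TRIM genes tested, as the limma estimate ± SE on the log2(TPM + 1) scale, cytokine minus control mRNA tumours (5 each). Of the 10 filled points to the right of 0, 9 are interferon-induced members (purple), from 0.94 in Trim26 to 3.82 in Trim30d; the filled grey points are Trim46 and Trim59.

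Libraries 7 and 10 stood apart from the other cytokine mRNA tumours. Library 7 had the lowest melanocyte marker level, with a sum of 41.9 TPM over 8 genes against 2604 to 16831 TPM in the other 9 libraries. Library 10 had the lowest summed level of interferon-induced TRIM genes among the cytokine mRNA tumours, at 270.4 TPM, with 485 to 723 TPM in the other 4. Without libraries 6 and 7 together, limma called 0 of the 10 interferon-induced genes, and called 19 genes higher in the whole table. At an unadjusted limma p under 0.05, 9 of the 10 rose, as did 1452 of the 12497 genes tested. Without single libraries the count of 9 was 4 without library 2, 5, 6 or 8, 5 without library 9 and 6 without library 4. It was 7 without library 7, 8 without library 1 or 3 and 9 without library 10. The whole table held 497, 452, 321 and 398 genes called higher without library 2, 5, 6 and 8, against 926 with all libraries. It held 540 without library 9, 469 without 4, 653 without 7, 778 without 1, 579 without 3 and 1644 without 10. Each of these fits kept 9 or 10 genes of the list with a rise at an unadjusted limma p under 0.05. The median change of the list ran from 1.68 to 2.08 in the fits on 9 libraries and was 1.76 without libraries 6 and 7.

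The 2 largest changes among the members tested were in genes of the Trim5-like cluster, Trim30d and Trim12a. On mouse chromosome 7, RefSeq places Trim6, Trim34a, Trim5, Trim12a, Trim34b, Trim12c, Trim30b, Trim30c, Trim30a and Trim30d as neighbours, with 1 other protein-coding gene, Gm38525, among them. Their summed level was 283, 416, 238, 302 and 106 TPM in cytokine mRNA libraries 6 to 10, against 48.4, 32.0, 43.4, 28.0 and 4.13 TPM in control libraries 1 to 5. The lowest cytokine mRNA tumour, library 10, held more than the highest control, library 1. All 5 cluster genes that could be tested were called higher.

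Trim30d, a paralog of Trim30a, was at 93.6, 151, 51.5, 51.7 and 19.2 TPM in cytokine mRNA libraries 6 to 10, against 9.65, 5.02, 4.91, 2.73 and 0 TPM in control libraries 1 to 5. The groups did not overlap, library 7 was the highest and library 10 the lowest of the cytokine mRNA tumours. The log2 change was 3.82 ± 0.65 (SE; limma adjusted p = 0.0120), and the call held in all 10 fits that left out 1 library. Its mean over cytokine mRNA tumours was 73.3 ± 50.6 TPM (SD, n = 5), or 54.01 TPM if library 7 is omitted. Trim30a, which in mouse macrophages targets the NF-kappaB adaptors TAB2 and TAB3 for degradation, was at 66.9, 74.4, 59.0, 67.7 and 29.6 TPM in cytokine mRNA libraries, against 14.1, 12.5, 15.5, 11.2 and 1.41 TPM in controls. Here 4 of the 5 cytokine mRNA tumours lay close together, and the fifth, library 10, was still above every control. Its log2 change was 2.53 ± 0.50 (limma adjusted p = 0.0157), a call that ended at the threshold once library 6 was omitted (limma adjusted p = 0.05).

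Trim12a, named like Trim12c as a mouse relative of TRIM5, was at 89.1, 130.1, 97.5, 150.1 and 45.1 TPM in cytokine mRNA libraries 6 to 10, against 16.03, 7.63, 15.6, 11.9 and 1.34 TPM in control libraries 1 to 5. The groups were well apart, with means of 102 ± 40.4 TPM in cytokine mRNA and 10.5 ± 6.14 TPM in control mRNA tumours (SD, n = 5 each), a ratio of 9.74. By mean level Trim12a was the second TRIM gene of the cytokine mRNA tumours and number 22 in controls. The log2 change was 3.35 ± 0.53 (limma adjusted p = 0.0102). Trim12c, shown in mice to act with TRAF6 in interferon and NF-kappaB signalling, was at 11.7, 14.9, 10.4, 13.2 and 5.61 TPM in cytokine mRNA tumours, against 3.89, 2.36, 2.07, 0.879 and 0.975 TPM in controls. It too showed no overlap, with a log2 change of 2.04 ± 0.35 (limma adjusted p = 0.0120). The calls of Trim12a and Trim12c held in all 10 fits that left out 1 library.

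Trim34a, related to human TRIM34, which joins TRIM5 on retroviral capsids, was at 5.15, 16.1, 9.87, 11.9 and 4.74 TPM in cytokine mRNA libraries and at 2.77, 2.80, 4.36, 0.990 and 0.409 TPM in controls. The lowest cytokine mRNA tumour, library 10, lay just above the highest control, library 3. The log2 change was 1.72 ± 0.44 (limma adjusted p = 0.0329), and omitting 1 library ended the call in 7 of 10 cases. Its paralog Trim34b was listed at 0 in all controls and in cytokine mRNA libraries 6, 8 and 10, with 0.619 TPM in library 7 and 0.292 TPM in library 9.

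The other cluster genes were below the filter. Trim30c was at 4.55, 14.2, 4.10, 2.60 and 0.333 TPM in cytokine mRNA libraries, against 0.713, 0.646, 0, 0 and 0 TPM in controls, and Trim30b had 2.64, 7.53, 1.66, 1.10 and 0.366 TPM in cytokine mRNA libraries, against 0.521, 0.345, 0.680, 0.325 and 0 TPM in controls. In both genes library 7 was the highest and library 10 lay within the control range. Trim6, whose human counterpart builds unanchored ubiquitin chains that activate the kinase IKK-epsilon, was at 4.19, 1.71, 0, 0.837 and 0.178 TPM in cytokine mRNA libraries, with a single control, library 2, above 0 at 0.427 TPM. In the fit with no filter on low values, limma gave adjusted p-values of 0.0681 for Trim30c, 0.134 for Trim30b and 0.205 for Trim6. Trim5, which was not on the list and is named here after its values were seen, was at 5.35, 6.12, 3.49, 2.79 and 0.613 TPM in cytokine mRNA libraries and at 0.693, 0.306, 0.307, 0 and 0 TPM in controls. Library 10 was the only cytokine mRNA tumour within the control range, and in the unfiltered fit the log2 change was 1.75 ± 0.38 (limma adjusted p = 0.0352).

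These paralogs can share reads, and how the counting treated such reads is not given in the sources used here. Of all distinct stretches of 50 bases in the GENCODE M21 transcripts of Trim34b, 56.8% also occur in Trim34a, and 39.8% of those of Trim34a occur in Trim34b. Trim12c shared 24.2% with Trim5, Trim12a 5.04% with Trim5, Trim30d 6.39% with Trim30a and Trim30a 5.98% with Trim30d. The values of Trim34a, Trim34b, Trim12c and Trim5 are therefore less certain than those of Trim12a, Trim30a and Trim30d, while Trim14, Trim21, Trim46 and Trim59 shared no such stretch with another TRIM gene.

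**Figure D2:**
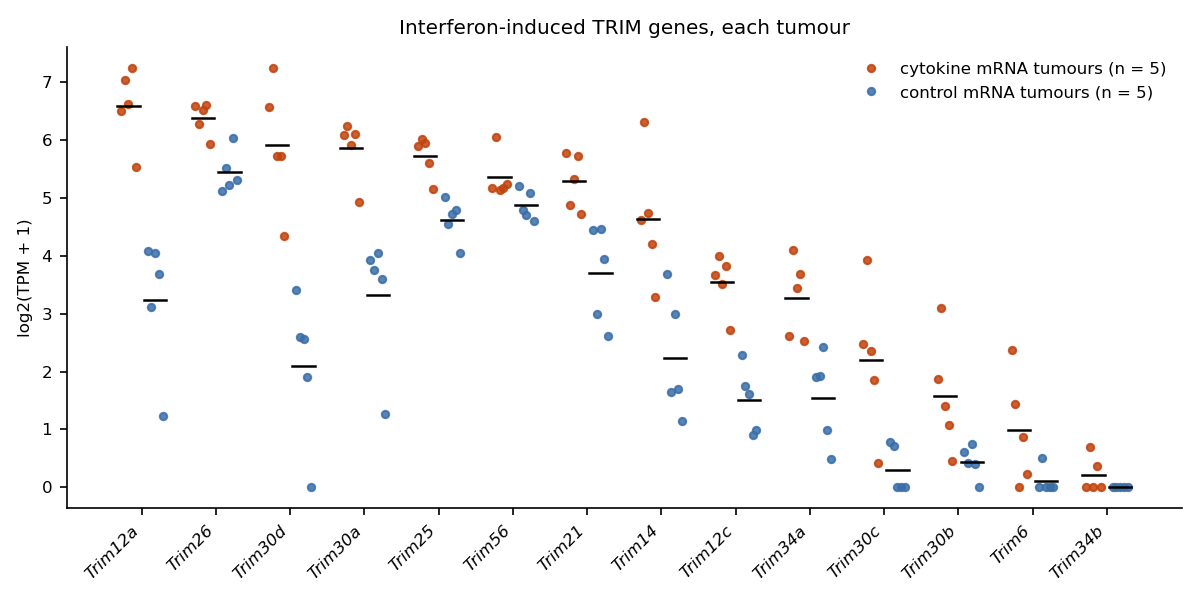
Level of the 14 interferon-induced TRIM genes in each tumour as log2(TPM + 1), with cytokine mRNA tumours left of control mRNA tumours (5 each, points) and the group mean as a bar. Trim12a, Trim30d, Trim30a, Trim12c, Trim34a, Trim21 and Trim25 show no overlap between groups, while Trim14 and Trim26 overlap through the lowest cytokine mRNA tumour, library 10.

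Outside that cluster 5 members of the list were tested, and 4 of them rose. Trim14, a mitochondrial adaptor of MAVS signalling that lacks the RING domain, was at 23.6, 78.7, 25.6, 17.5 and 8.72 TPM in cytokine mRNA libraries 6 to 10, against 11.8, 2.12, 6.97, 2.25 and 1.202 TPM in control libraries 1 to 5. Library 7 was the highest by far, and library 10 lay below control library 1. The log2 change was 2.40 ± 0.60 (limma adjusted p = 0.0304), and it was not called in 7 of 10 fits on 9 libraries. Omitting library 7 gave a cytokine mRNA mean of 18.9 TPM in place of 30.8 TPM. Trim21, a cytosolic antibody receptor that directs antibody-bound virus to the proteasome, was at 53.9, 28.5, 38.9, 51.5 and 25.5 TPM in cytokine mRNA libraries, against 20.8, 6.96, 21.1, 14.5 and 5.12 TPM in controls. In this gene library 7 was among the lower cytokine mRNA tumours, and the groups did not overlap. Its log2 change was 1.59 ± 0.40 (limma adjusted p = 0.0311), not called in 6 of those fits.

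Trim25, the ligase known for ubiquitinating the RNA sensor RIG-I, was at 58.4, 64.0, 60.5, 47.7 and 34.5 TPM in cytokine mRNA libraries, against 31.2, 22.4, 25.5, 26.6 and 15.5 TPM in controls. The groups were close but did not overlap, with means of 53.0 ± 12.0 TPM in cytokine mRNA and 24.2 ± 5.85 TPM in control mRNA tumours (SD, n = 5 each), a log2 change of 1.10 ± 0.25 (limma adjusted p = 0.0212) and no call in 4 of the 10 fits on 9 libraries. Trim26, which acts on the transcription factor IRF3 and on NEMO, was at 95.2, 76.5, 91.1, 95.8 and 59.8 TPM in cytokine mRNA libraries, against 33.9, 44.7, 36.4, 64.2 and 38.5 TPM in controls. Library 10 was below control library 4, and the log2 change of 0.94 ± 0.23 (limma adjusted p = 0.0265) was the smallest of the 9 called and was not called in 7 of those fits. Trim56, linked to STING and TLR3 signalling, was the single tested member of the list that was not called. It was at 35.2, 65.5, 34.3, 34.9 and 36.8 TPM in cytokine mRNA libraries and at 36.0, 26.6, 25.1, 33.1 and 23.3 TPM in controls. Apart from library 7, its cytokine mRNA tumours lay at the upper end of the controls (limma adjusted p = 0.191).

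The make-up of the family's transcripts differed more than their total. The 68 genes summed to 1134, 1244, 1150.3, 1287 and 1205 TPM in cytokine mRNA libraries 6 to 10, against 1171, 1069.9, 1094, 1174 and 873 TPM in control libraries 1 to 5. Of this, the 14 interferon-induced genes took 48.0%, 58.1%, 42.1%, 42.5% and 22.4% in the cytokine mRNA tumours, against 15.5%, 12.6%, 14.5%, 14.4% and 10.0% in controls. The totals overlapped between the groups, while the shares did not. The other 54 genes summed to 690.4 ± 159 TPM in cytokine mRNA and 930.4 ± 86.7 TPM in control mRNA tumours (SD, n = 5 each), and library 10, at 935 TPM, lay within the control range of 786 to 1006 TPM. Because TPM is a share of the library, a rise of some genes lowers the values of others and a fall raises them. The part of this in the sums was not tested. Trim28 had the highest mean of the family in both groups.

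**Figure D3:**
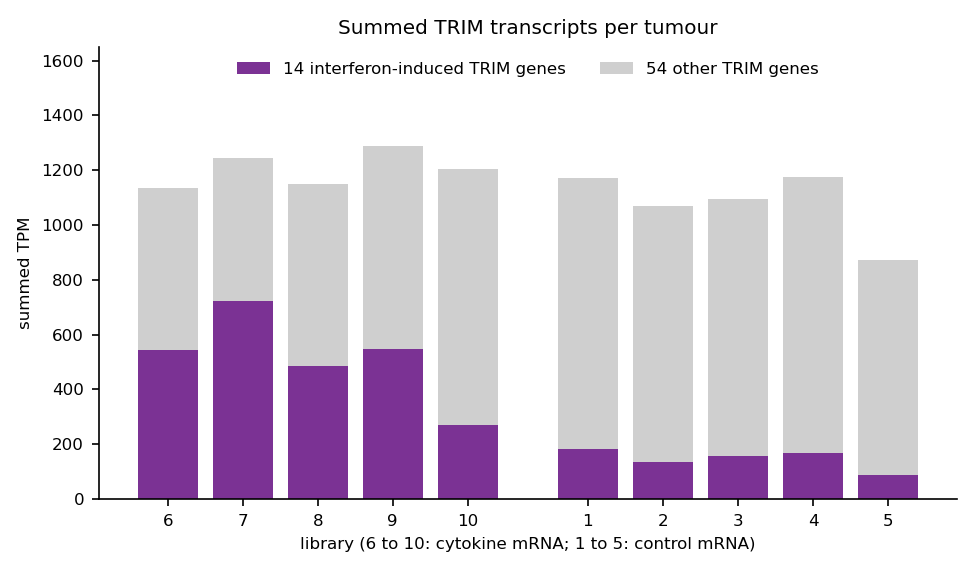
Summed TPM of the 14 interferon-induced TRIM genes (purple) and the 54 others (grey) in each library, cytokine mRNA libraries 6 to 10 left of control libraries 1 to 5. The purple part runs from 270.4 to 723 TPM in cytokine mRNA tumours and from 87.7 to 182 TPM in controls.

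The level of the interferon-induced members moved with that of leukocyte genes. The marker lists were chosen with earlier results of these data known, and 7.41% of all genes tested were called higher. All 4 leukocyte markers (Ptprc, Coro1a, Laptm5 and Cd53) rose, with a sum of 279 to 2515 TPM in cytokine mRNA and 41.2 to 324 TPM in control mRNA tumours. Of 7 macrophage and monocyte markers 6 rose, with sums of 476 to 5193 TPM in cytokine mRNA and 107 to 309 TPM in control mRNA tumours. Of the 5 T cell markers tested 4 rose, with sums over all 7 of 57.1 to 3462 TPM in cytokine mRNA and 3.83 to 43.3 TPM in control mRNA tumours. Of the 2 neutrophil markers tested both rose (6.57 to 176 TPM in cytokine mRNA and 0.771 to 8.70 TPM in control mRNA tumours over the list of 5). S100a8 was in the test mainly through its cytokine mRNA tumours, since library 4, at 2.57 TPM, was the only control above 0. The mean log2 level of the 14 TRIM genes was highest in library 7, at 4.81, where the leukocyte mean was 8.62, and lowest in control library 5, at 1.55, where it was 3.08. Library 10 and control library 1 had near-equal leukocyte means of 5.53 and 5.45, with TRIM means of 3.25 and 2.89. No marker of any list was at 0 in all libraries, and the part of leukocyte numbers in these results was not tested.

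**Figure D4:**
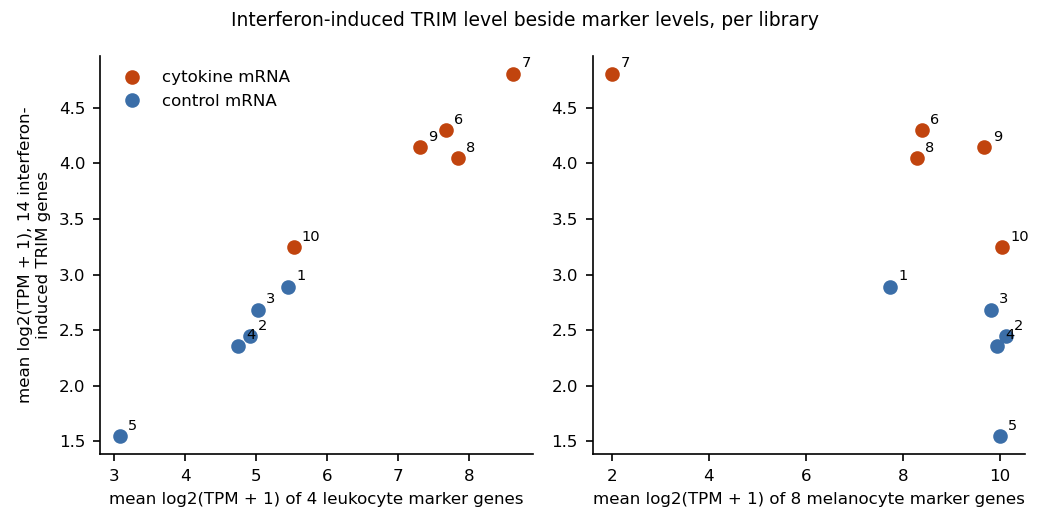
Mean log2(TPM + 1) of the 14 interferon-induced TRIM genes in each library (numbered points) against that of 4 leukocyte markers (left) and 8 melanocyte markers (right), cytokine mRNA tumours in red and control mRNA tumours in blue. From library 5 to library 7 the TRIM level climbs with the leukocyte level, while most libraries share a melanocyte level of 7.74 to 10.1 and library 7 lies alone at 2.01.

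Among the 54 other TRIM genes the values mostly overlapped between groups. Trim46, which bundles microtubules at the start of the axon in neurons, was the one that rose: it was at 14.3, 8.33, 6.71, 9.13 and 8.20 TPM in cytokine mRNA libraries 6 to 10, against 6.07, 4.99, 2.52, 1.40 and 1.71 TPM in control libraries 1 to 5. The groups did not overlap, and library 10 lay between libraries 8 and 7, with library 6 the highest. The log2 change was 1.35 ± 0.36 (limma adjusted p = 0.0370), and of the 10 fits on 9 libraries it was called in 2, those that omit library 1 or 10. Of the other nervous system members Trim2, a ligase of neurofilament light chain, averaged 28.5 ± 13.7 TPM in cytokine mRNA and 33.7 ± 15.1 TPM in control mRNA tumours, and Trim3 averaged 33.6 ± 4.01 TPM in cytokine mRNA and 36.3 ± 9.71 TPM in control mRNA tumours (SD, n = 5 each). Neither was called.

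Trim59, a membrane-associated member reported to restrain NF-kappaB and interferon signalling, was the one that fell. It was at 43.2, 31.9, 37.7, 58.1 and 116 TPM in cytokine mRNA libraries, against 104, 167, 110.1, 171 and 122 TPM in controls, where it was the second most abundant TRIM gene. Libraries 6 to 9 lay below all controls, and library 10 lay among them. The log2 change was -1.35 ± 0.33 (limma adjusted p = 0.0284), and it was -1.64 without library 10, with a cytokine mRNA mean of 42.7 TPM in place of 57.5 TPM. Of the 10 fits on 9 libraries 2 called it, those that omit library 1 or 10. Of 6 cell division markers, added after seeing the data, 4 fell (Mki67, Cdk1, Plk1 and Ube2c), against 3.02% of all genes tested. Library 10 was again close to the controls. The 6 markers summed to 190.2, 120.5, 261, 192 and 726 TPM in cytokine mRNA libraries 6 to 10, against 728 to 884 TPM in controls. Their part in the Trim59 result was not tested.

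Of 3 transcription regulators tested limma called 0, with 0 higher and 2 lower at an unadjusted p under 0.05. At that threshold 2009 of all 12497 genes tested were lower. Trim28, the corepressor that KRAB zinc finger proteins recruit to silence transposable elements, was at 111, 92.0, 139, 145 and 229.7 TPM in cytokine mRNA libraries, against 283, 217, 255, 239.6 and 191 TPM in controls. Again libraries 6 to 9 lay below every control and library 10 among them. Its log2 change was -0.78 ± 0.25 (limma adjusted p = 0.0659). Of the 10 fits on 9 libraries only the 1 without library 10 called it (limma adjusted p = 0.00812). That fit called 1594 genes lower in the whole table, against 378 with all libraries. Without libraries 6 and 7 the limma adjusted p of Trim28 was 0.231. Trim33, a regulator of SMAD signalling, was at 36.4, 23.9, 36.9, 89.2 and 85.3 TPM in cytokine mRNA libraries, against 57.2, 92.4, 83.6, 115 and 88.3 TPM in controls, with libraries 9 and 10 inside the control range (limma adjusted p = 0.154). Trim24, a cofactor of nuclear receptors, averaged 60.2 ± 17.9 TPM in cytokine mRNA and 61.8 ± 14.7 TPM in control mRNA tumours (SD, n = 5 each). Trim66, related to these, was below the filter at 0.213 to 1.01 TPM in cytokine mRNA and 0.0811 to 0.298 TPM in control mRNA tumours. Trim37, a ligase that limits centriole assembly, was at 10.7, 3.68, 14.2, 15.3 and 22.3 TPM in cytokine mRNA libraries, against 23.4, 25.3, 24.3, 27.7 and 19.3 TPM in controls. Its limma adjusted p was 0.109. The fit without library 10 (limma adjusted p = 0.0331) was the only 1 of the 10 fits on 9 libraries that called it. Without libraries 6 and 7 the limma adjusted p of Trim37 was 0.27.

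Of the 4 striated muscle members only Trim63 passed the filter, and it was not called. Trim63, known as MuRF1, a ligase of muscle wasting, was at 6.24, 1.62, 8.55, 14.8 and 38.1 TPM in cytokine mRNA libraries 6 to 10, against 14.4, 32.4, 27.3, 36.1 and 30.4 TPM in control libraries 1 to 5. Library 10 was the highest of all 10 tumours and library 7 the lowest (limma adjusted p = 0.128). Of the 10 fits on 9 libraries only the 1 without library 10 called Trim63 (limma adjusted p = 0.0154). Without libraries 6 and 7 its limma adjusted p was 0.491. Trim72, which takes part in membrane repair, was at 0.181 to 2.24 TPM in cytokine mRNA tumours, against 5.30 and 3.13 TPM in control libraries 1 and 3 and 0 to 0.170 TPM in the other controls. Trim54 and Trim55, further muscle RING finger genes, stayed at or under 0.395 and 0.181 TPM in cytokine mRNA tumours and had their highest values in control library 1, at 1.88 and 0.676 TPM. The 8 skeletal muscle markers, none of them called, summed to 105, 141 and 181 TPM in cytokine mRNA libraries 6, 7 and 8, to 808 and 451 TPM in control libraries 1 and 3, and to 4.44 to 11.5 TPM in the other 5 libraries. Trim72 and Trim54 thus had their 2 highest values in the 2 libraries with the most muscle transcript, whereas Trim63 was at 30.4 to 38.1 TPM in libraries 2, 4, 5 and 10, where those markers summed to 4.44 to 8.89 TPM. The melanocyte markers, also not called, summed to 6058, 41.9, 4117, 14214 and 16831 TPM in cytokine mRNA libraries 6 to 10 and to 2604, 16414, 13823, 14632 and 15124 TPM in control libraries 1 to 5. Trim63 was at 27.3 to 38.1 TPM in libraries 2, 3, 4, 5 and 10, where these markers summed to 13823 to 16831 TPM. It was at 1.62 to 14.4 TPM in libraries 1, 6, 7 and 8, where they summed to 41.9 to 6058 TPM. Library 9, with a sum close to those of libraries 3 and 4, had less Trim63 than either, at 14.8 TPM. Whether muscle or tumour cells were the source of any of these transcripts was not tested.

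**Figure D5:**
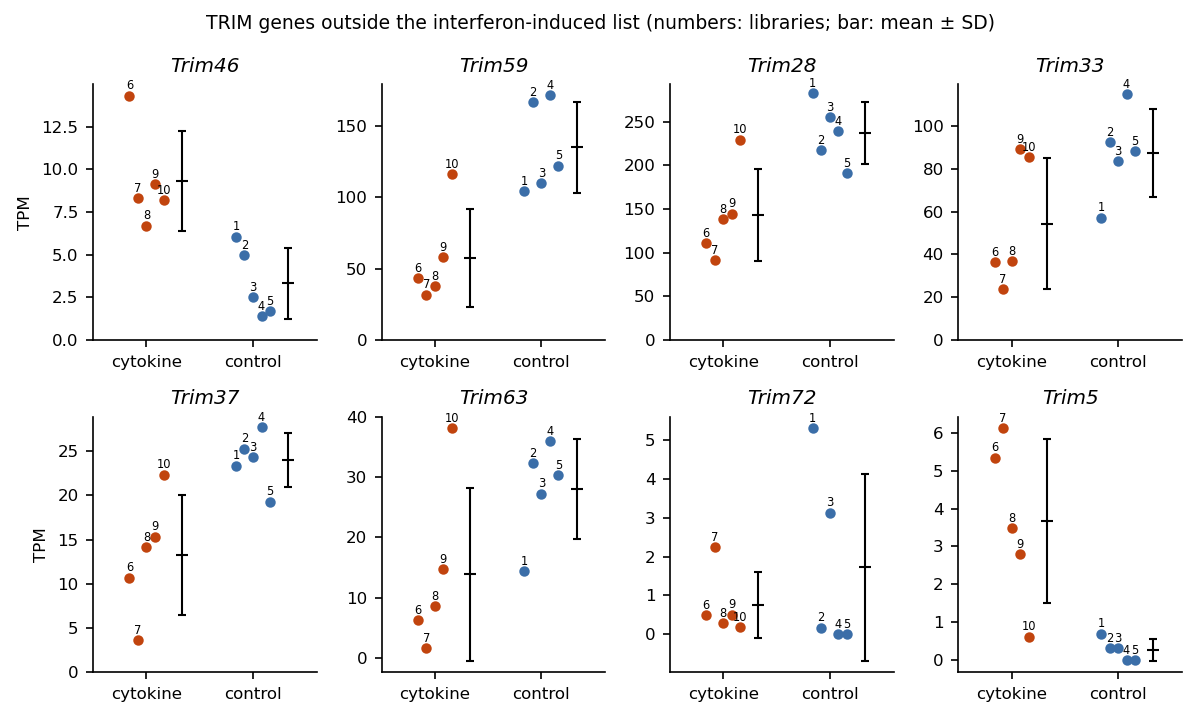
TPM of 8 TRIM genes outside the interferon-induced list in each library (numbered), cytokine mRNA left of control mRNA tumours, with mean ± SD at the right of each group (n = 5 each). Trim46 and Trim59 were called. Library 10 lies within the control range in Trim59, Trim28, Trim33, Trim37, Trim72 and Trim5, and above it in Trim46 and Trim63.

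Of 16 regulators of innate sensing with a row 12 were tested, and the 11 other than Trim59 were not called, with changes between -0.94 and 0.33 on the log2 scale. They include Trim8, which acts on SOCS1, at 32.8 ± 12.6 TPM in cytokine mRNA and 28.3 ± 5.39 TPM in control mRNA tumours (SD, n = 5 each), and Trim27, at 27.7 ± 7.51 TPM in cytokine mRNA and 31.5 ± 12.4 TPM in control mRNA tumours. Trim41 averaged 35.1 TPM in both groups. Trim44, which lacks the RING domain, had 53.1 ± 8.94 TPM in cytokine mRNA and 47.6 ± 4.96 TPM in control mRNA tumours (limma adjusted p = 0.597). The 22 members with no assigned role include 7 tested genes, none called, with changes between -0.98 and 0.53 on the log2 scale. Of the erythroid members Trim10 had 0 to 1.29 TPM in cytokine mRNA and 0.344 to 2.28 TPM in control mRNA tumours and Trim58 was at 0 throughout, and of the 3 erythroid markers tested none was called.

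TRIM proteins that carry other symbols are not members by the rule but give the same comparison. Mefv, the gene of pyrin, found in myeloid cells, rose with 12.6, 24.6, 9.07, 6.14 and 1.13 TPM in cytokine mRNA libraries against 0 to 1.03 TPM in controls (log2 change 2.73 ± 0.58, limma adjusted p = 0.0182). It was in the test mainly through its cytokine mRNA tumours, since 3 of the 5 controls were at 0. Mid1, a microtubule-associated member, rose by 1.05 ± 0.30 (limma adjusted p = 0.0480), and Mid2 was not called. Pml, the scaffold of nuclear bodies and a known interferon target, was at 72.4, 81.6, 230.1, 218 and 234 TPM in cytokine mRNA libraries 6 to 10 and at 144, 138, 147, 156 and 117 TPM in control libraries 1 to 5. Libraries 6 and 7 lay below every control and libraries 8, 9 and 10 above every control, with group means of 167 ± 82.5 TPM in cytokine mRNA and 141 ± 14.6 TPM in control mRNA tumours (SD, n = 5 each; limma adjusted p = 0.902).

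The pathways in which these proteins act were compared through lists chosen with earlier results of these data known. Over all genes tested, 7.41% were called higher, 3.02% lower and 10.4% in either direction. Of 21 genes of RNA and DNA sensing 5 rose, namely Ddx58, Ifih1, Dhx58, Ikbke and Irf7. Ddx58, the RIG-I gene on which Trim25 acts, averaged 58.3 ± 8.56 TPM in cytokine mRNA and 28.3 ± 3.76 TPM in control mRNA tumours (SD, n = 5 each), and Irf7, a factor that drives type I interferon genes, 188 ± 78.3 TPM in cytokine mRNA and 39.4 ± 20.1 TPM in control mRNA tumours. The log2 changes of Dhx58, Ifih1 and Ikbke were 2.11, 1.76 and 1.73. Of 5 genes of the ISG15 system 3 rose (Isg15, Ube2l6 and Usp18), with a log2 change of 2.73 ± 0.45 in Isg15 (limma adjusted p = 0.0108). Of 12 genes of interferon receptors and their signalling 6 rose, among them Stat2 at 206 ± 71.3 TPM in cytokine mRNA and 38.5 ± 16.8 TPM in control mRNA tumours. Irf1, Socs1, Ifnar2 and Ifngr1 also rose. Of 11 E2 enzymes, which hand ubiquitin to ligases such as the TRIM proteins, limma called 1, which is near the 10.4% of all genes called. This was Ube2e3, which fell, with 24.2 ± 7.40 TPM in cytokine mRNA and 43.3 ± 6.56 TPM in control mRNA tumours. Of the remaining marker lists, none of the 5 fibroblast genes, the 4 endothelial genes or the 1 tested B cell gene was called. The 6 keratinocyte genes were below the filter, with sums of 0 to 14.8 TPM in cytokine mRNA and 0 to 1.94 TPM in control mRNA tumours.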

How the data were processed

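Messenger RNA was sequenced from 10 subcutaneous tumours, 5 per group; per the labels' protocols, RNA was DNase-treated, polyA RNA was used and libraries were stranded NuGEN. The authors deposited 1 table of TPM with a row per gene symbol, each column summing to the same total. The submitters' processing notes name STAR as aligner and GRCh38 as build; that build is human, although samples and symbols are mouse. Annotation, counting and TPM computation: not given in the sources used here. Reference sequences and positions are RefSeq GRCm38.p6, not the files' build. TPM keeps no depth, so no counting interval can be given; 11513 to 12984 genes per library reached 1 TPM, and mitochondrial genes took 4.44% to 19.2% of TPM in cytokine mRNA and 16.2% to 27.9% in control mRNA tumours.

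Libraries were grouped by their titles; no number is shared between groups. The 12497 genes that reached 1 TPM in 5 or more libraries were compared as log2(TPM + 1) with limma 3.58.1 in R 4.3.3 (eBayes with a trend, two-sided, Benjamini-Hochberg over all genes tested), after testing on simulated data. Changes of low genes are understated by the pseudocount of 1. The members, the interferon-induced list, the role, pathway and marker lists and the genes to name were chosen with earlier results of these data known; the cell division markers were added after seeing the data. Named were all interferon-induced members, other members called or without overlap, the 2 most abundant of each role list, muscle members, and called genes of the pathway lists; Trim5, Trim8, Trim24, Trim27, Trim36, Trim37, Trim44, Trim66, Trim71, Ddx58, Ifnar2 and Ifngr1 were named after their values were seen. 1 result that this rule names is not reported here. Alternatives were other pseudocounts, filters, scalings, variance settings, library weights, an exact rank test, a stricter threshold and left-out libraries.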

Additional observations from a re-analysis of the deposited data

Results flagged for a closer look

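In 55 groups of 5 tumours examined, taken from 29 items (the named TRIM genes and sums over them), 6 held a tumour far from the other 4 (a gap to the nearest value of more than 0.71 of the group's range). For normally distributed values chance gives about 1 in 20 groups. Library 7 was that tumour in 4 of the 6. Trim14 was at 78.7 TPM there, with 8.72 to 25.6 TPM in the other cytokine mRNA tumours. Trim56 was at 65.5 TPM, with 34.3 to 36.8 TPM in the others. Trim72 was at 2.24 TPM, with 0.181 to 0.505 TPM in the others, and Trim55 was at 0.181 TPM, with 0 in the others. Among control tumours, Trim55 was at 0.676 TPM in library 1 and Trim6 at 0.427 TPM in library 2, each with 0 in the other 4. Where the other 4 tumours are at 0, as for Trim55 in both groups and Trim6 in controls, any value above 0 is flagged. The rate of 1 in 20 does not apply to such groups.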

How the results depend on the processing

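Under the settings tried, no TRIM gene changed sign past the threshold, and 0 interferon-induced genes were called lower. Of the main counts (926 genes higher and 378 lower in the table; 9 interferon-induced TRIM genes higher; 1 other TRIM gene higher and 1 lower), these moved. A count was taken as moved if it changed by a ratio of more than 1.5, or to or from 0. With no filter 170 genes were lower. The count of 9 interferon-induced genes had smaller drops. It was 6 of 14 with no filter and 8 of 9 with a filter of 5 TPM. After rescaling without mitochondrial genes it was 8 of 10, with Trim26 at a limma adjusted p of 0.0511. Lower genes numbered 572 after rescaling without the 50 most abundant genes, 900 without mitochondrial genes and 613 after quantile normalization, with 885, 852 and 1016 higher; in each, 2 other TRIM genes were lower (Trim59 and Trim28). Library weights gave 1593 higher and 1176 lower, with 2 and 5 other TRIM genes. Without libraries 6 and 7 there were 19 and 1, with 0 interferon-induced and 0 other TRIM genes. An exact rank test called 0 in each count (1431 higher and 1483 lower at an unadjusted p under 0.05, with 9 interferon-induced genes). Groups with no overlap, the most extreme ranking, had a rank test adjusted p of 0.0860, so that test could call no gene here. At an adjusted p under 0.01 limma called 61 higher and 0 lower, and 0 TRIM genes. Omitting 1 library gave 321 to 1644 higher, 46 to 1594 lower, 4 to 9 interferon-induced genes higher, and 0 to 2 higher and 0 to 4 lower other TRIM genes. The median change of the interferon-induced genes ran from 1.25 (pseudocount 5) to 2.38 (pseudocount 0.1); that of all genes, -0.18, was -0.03 with median-ratio scaling and -0.36 without mitochondrial genes. With no filter, limma adjusted p-values were 0.0546 for Trim14, 0.0518 for Trim21, 0.0575 for Trim34a and 0.0628 for Trim46. The cause of these moves was not tested. No paired analysis was possible because the groups share no replicate numbers. Depth is unknown, so levels under 1 TPM are the least certain.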
